A study of Homo sapiens with 12 samples.

Results

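Immediate early genes are the first genes that a cell transcribes when a growth factor, hormone or stress signal reaches it. Their expression was followed here in ZR-75-1, a human breast cancer cell line that expresses the oestrogen receptor, with and without *RB1* and with and without CDK4/6 inhibition. The 10 genes *FOS*, *FOSB*, *JUN*, *JUNB*, *EGR1*, *EGR2*, *EGR3*, *ATF3*, *IER2* and *DUSP1* were chosen by symbol from the 60612 named rows of a table of raw read counts, and each matched 1 row. They were selected after *EGR1* and *FOS* had been seen to be highest relative to DMSO in abemaciclib-treated *RB1*-knockout cells, so every comparison that holds knockout libraries is given for them as a description, with no p-value. Counts of calls there stand beside the share over all genes and nothing is read from them. The response in sgControl cells compares libraries that were not part of that observation, and it was tested. Its p-values are not fully independent of the choice. Earlier results of these data were known when the genes were chosen, and both genotypes share the parental line and the drug. The p-values also come from a model of all 12 libraries, in which the knockout libraries helped to set the spread and the size factors. With only the groups compared in the fit, all 10 genes were still called, but the adjusted p-values of *EGR1* and *FOS* were larger.

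The cells were isogenic ZR-75-1 clones edited with CRISPR and either a non-targeting guide RNA (sgControl) or a guide RNA against *RB1*, which encodes the tumour suppressor Rb. Clones of each genotype were kept for 5 days in DMSO or in abemaciclib at 500 nM, a drug that blocks CDK4 and CDK6 and thereby the phosphorylation of Rb. This gave 4 groups of 3 biological replicates, all in the same parental line. How many clones stand behind each genotype is not given in the sources used here, so the effect of *RB1* loss and a difference between clones cannot be told apart.

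Immediate early genes need no new protein for their induction, because the factors that switch them on are already bound or ready in the resting cell. The kinase ERK phosphorylates ETS-family partners of serum response factor (*SRF*) at sites called CArG boxes, and cAMP or calcium signals act through CREB at sites called CRE. The products fall into 3 kinds. *FOS*, *FOSB*, *JUN* and *JUNB* pair through leucine zippers to form the transcription factor AP-1, and *ATF3* is a related zipper protein that responds to stress. *EGR1*, *EGR2* and *EGR3* are zinc-finger transcription factors that bind GC-rich DNA. *IER2* is a short nuclear protein, and *DUSP1* is a phosphatase that removes the activating phosphates from MAP kinases and so closes the loop.

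RefSeq start sites were matched for 9 of the 10 genes (all but *EGR3*), with 12 windows of 250 bases upstream of a start (GRCh38.p14), and 6 windows are printed: those of the 3 genes with the largest knockout response (*EGR1*, *FOS*, *EGR2*), of the 2 that with *FOS* had the largest sgControl response (*DUSP1*, *FOSB*) and of *ATF3*, which fell there. Capitals mark CArG boxes, the CRE TGACGTCA and its core TGACG or CGTCA, and the TATA element TATAAA. Each sequence runs 5′ to 3′ on the strand of its gene and ends at the base before the start.
EGR1: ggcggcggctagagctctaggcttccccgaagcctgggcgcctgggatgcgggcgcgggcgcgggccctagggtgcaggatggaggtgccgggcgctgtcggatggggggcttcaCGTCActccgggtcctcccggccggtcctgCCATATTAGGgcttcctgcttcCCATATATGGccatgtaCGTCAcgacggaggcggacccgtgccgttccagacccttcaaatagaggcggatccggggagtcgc
EGR2: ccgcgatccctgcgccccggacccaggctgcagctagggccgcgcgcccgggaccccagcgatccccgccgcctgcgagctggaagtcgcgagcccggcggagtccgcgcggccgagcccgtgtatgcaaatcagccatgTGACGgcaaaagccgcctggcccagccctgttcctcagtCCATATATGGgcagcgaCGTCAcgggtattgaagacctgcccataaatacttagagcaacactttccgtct
FOS: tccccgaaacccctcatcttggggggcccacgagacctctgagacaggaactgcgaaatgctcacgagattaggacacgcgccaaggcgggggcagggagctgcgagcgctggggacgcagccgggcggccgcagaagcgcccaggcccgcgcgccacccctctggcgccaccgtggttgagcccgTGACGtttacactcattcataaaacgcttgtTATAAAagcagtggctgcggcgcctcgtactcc
FOSB: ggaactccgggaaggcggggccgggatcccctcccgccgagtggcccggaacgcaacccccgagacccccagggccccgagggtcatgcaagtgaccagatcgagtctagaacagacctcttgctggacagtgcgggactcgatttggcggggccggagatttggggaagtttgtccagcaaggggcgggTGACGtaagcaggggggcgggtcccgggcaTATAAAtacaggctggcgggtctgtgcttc
DUSP1: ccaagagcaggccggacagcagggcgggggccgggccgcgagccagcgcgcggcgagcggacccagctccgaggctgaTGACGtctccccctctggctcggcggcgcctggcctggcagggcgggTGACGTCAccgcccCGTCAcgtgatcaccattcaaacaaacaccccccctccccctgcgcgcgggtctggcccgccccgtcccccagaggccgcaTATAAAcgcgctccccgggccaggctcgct
ATF3: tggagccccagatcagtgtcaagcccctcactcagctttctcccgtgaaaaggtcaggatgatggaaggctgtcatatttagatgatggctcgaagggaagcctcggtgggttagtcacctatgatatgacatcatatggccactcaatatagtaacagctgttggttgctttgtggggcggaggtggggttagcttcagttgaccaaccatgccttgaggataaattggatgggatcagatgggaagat
The *EGR1* window lies at chr5:138465229-138465478 on the plus strand, the window of 1 of the 3 *EGR2* starts at chr10:62816367-62816616 on the minus strand and the *FOS* window at chr14:75278578-75278827 on the plus strand. *FOSB* is shown at chr19:45467746-45467995 (plus), *DUSP1* at chr5:172771196-172771445 (minus) and the first of 2 *ATF3* starts at chr1:212565157-212565406 (plus).

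Read on both strands, a CArG box occurred in 2 of the 12 windows, that of *EGR1* and 1 of those of *EGR2*. It occurred in 1.16% of 35116 upstream windows of the same length in the RefSeq table. *EGR1* held a pair of these boxes, CCATATTAGG from −105 to −96 and CCATATATGG from −83 to −74, counted back from −1 at the base before the start. *EGR2* held CCATATATGG from −71 to −62 in the window printed, and its other windows held none of the sites marked by capitals. The CRE core TGACG was found in 8 of the 12 windows, 1 for each of 8 of the 9 genes matched (*DUSP1*, *EGR1*, *EGR2*, *FOS*, *FOSB*, *IER2*, *JUN* and *JUNB*) and in 21.2% of all windows. In *FOS* it ran from −64 to −60 and in *FOSB* from −60 to −56. The whole palindrome TGACGTCA, which contains the core on both strands, was found in *DUSP1* from −125 to −118 and in 1.65% of all windows. TATAAA, at 10.7% of all windows, began at −30 in *DUSP1* and *FOSB*, −31 in *JUNB* and −33 in *FOS*, and a further match lay at −230 in the second *ATF3* window. The AP-1 site TGANTCA (6.57% of all windows) was in none of the 12, the EGR site GCGNGGGCG (8.41%) was in *EGR1* and the ETS site CCGGAAG (8.52%) was in *IER2*. A match shows only that these letters are present. A window without a match does not show that the gene lacks the site. Bases farther upstream, and those after the start, were not searched, so a CArG box of *FOS* or another gene could lie there. Several windows can belong to 1 gene.

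The genes themselves are compact. Their median span in GENCODE release 44 (GRCh38) was 5161.5 bases and their median number of exons was 2, against 27424 bases and 8 exons over 20046 protein-coding genes. *JUN* (chr1:58776845-58784048) and *JUNB* (chr19:12791486-12793315) have a single exon each, as do 5.64% of protein-coding genes, and *ATF3* (chr1:212565334-212620777) is the longest at 55444 bases. *FOSB* overlaps *ERCC1* and *JUNB* overlaps *HOOK2* on the opposite strand. *DUSP1*, *EGR3* and *IER2* overlap unnamed genes there, and *EGR2* overlaps an unnamed gene on its own strand. Whether reads were counted by strand is not stated, so reads of such a neighbour could be held in these counts. *FOS*, *JUN*, *EGR1* and *ATF3* overlap no annotated gene.

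The libraries held 39907318 to 81636393 counts. *RB1* had 29 to 63 counts in the knockout libraries and at least 2090 in each sgControl library, as labelled. Markers of luminal breast epithelium were detected for 7 of 7 genes in every group. Of the leukocyte list, *CD3E* and *TYROBP* were at 0 throughout and *PTPRC* reached at most a normalized count of 3.40, while *LYZ* reached 544. Of the fibroblast list, *COL1A1* was at 1879 to 3031 over all libraries and was higher in abemaciclib in both genotypes, *COL1A2* reached 2.26 and *COL3A1* 0.630. *LUM* reached 66.1 and *DCN* 23.8, both in sgControl abemaciclib. Of the endothelial list, *VWF* reached 102, *PECAM1* 3.23 and *CDH5* 1.05. Mitochondrial genes took 2.82% to 3.99% of counts in sgControl DMSO and 7.22% to 8.53% in sgControl abemaciclib, and 3.78% to 4.13% and 5.44% to 7.39% in the knockout. This share moved with the drug and its part in the results was not tested. Library 1 of sgControl DMSO stood apart, with a chi-square per gene of 50.2 and 105 against its replicates where these differed from each other by 18.1. Values below are normalized counts (counts divided by the DESeq2 size factor of the library) in the order of replicates 1, 2 and 3, errors of means are SD with n = 3, and errors of log2 fold changes are SE. In bulk RNA, fewer expressing cells and less RNA per cell cannot be told apart.

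In sgControl cells, 9 of the 10 genes rose with abemaciclib and *ATF3* fell. The largest increases were those of *DUSP1* (9.55-fold), *FOS* (9.26-fold) and *FOSB* (8.02-fold), followed by the EGR genes (5.10- to 5.63-fold) and *JUN* (4.31-fold), with *JUNB* (2.32-fold) and *IER2* (1.59-fold) behind them. Over all genes tested, 25% were called higher and 24.8% lower in this comparison at an adjusted p under 0.05, and the median log2 fold change of the 10 genes was 2.39 against 0.01 for all genes. Total-count scaling shifted the median gene by −0.13 and moved the share of higher calls among all calls from 50.2% to 40.1%, and all 10 members stayed on their side. Among the 11874 genes whose normalized counts averaged 100 or more, ordered from the largest rise, *DUSP1* was 55th, *FOS* 57th, *FOSB* 67th, *EGR1* 107th, *EGR3* 129th and *JUN* 156th. *JUNB* was 594th, *IER2* 1640th and *ATF3* 10479th.

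In *RB1*-knockout cells, all 10 genes were higher in abemaciclib than in DMSO with no overlap between replicates, *ATF3* included. *EGR1* (18.1-fold), *FOS* (16.5-fold) and *EGR2* (13.0-fold) stood highest, then *FOSB* (9.03-fold), *JUN* (6.72-fold) and *DUSP1* (5.73-fold), and *JUNB* (1.90-fold) and *ATF3* (1.80-fold) lowest. The median log2 fold change was 2.63 against 0.02 for all genes. Each of the 10 was called higher, where 14.9% of all genes were called higher and 15.1% lower, but the genes were chosen on this contrast and nothing is read from the count.

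**Figure D1:**
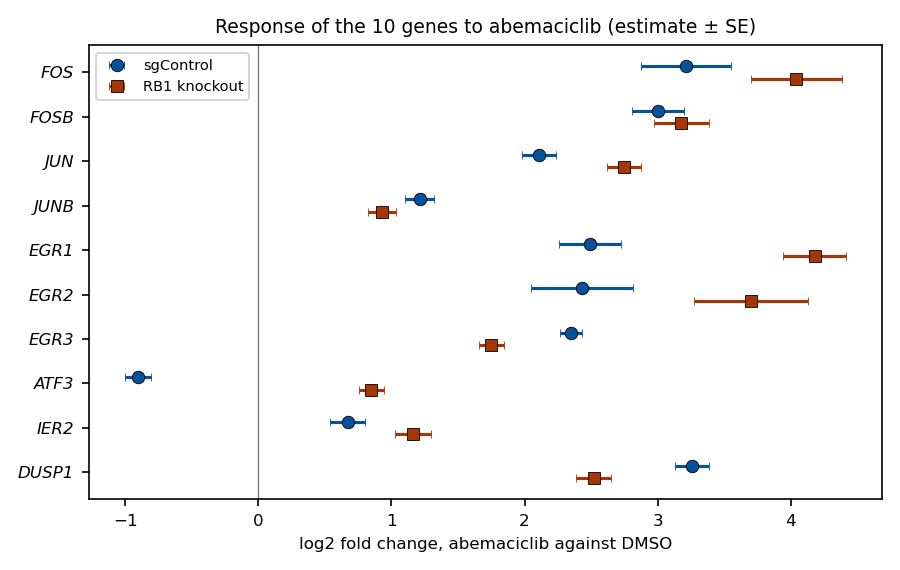
Log2 fold change of abemaciclib against DMSO (x axis) for each of the 10 genes (y axis), as DESeq2 estimates with bars of 1 SE; blue circles are sgControl cells and brown squares *RB1*-knockout cells, with 3 libraries per group. *ATF3* lies at −0.90 in sgControl and 0.85 in the knockout, and *EGR1* has the knockout estimate farthest to the right, at 4.18.

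*FOS*, which pairs with *JUN* proteins into the more stable form of AP-1, was low in DMSO and high in abemaciclib in both genotypes. Its normalized counts in sgControl were 254, 524 and 706 in DMSO and 3336, 5208 and 5212 in abemaciclib, a log2 fold change of 3.21 ± 0.34 (DESeq2, Benjamini–Hochberg adjusted p = 1.20e-20). In the knockout they were 294, 283 and 227 in DMSO and 4213, 4376 and 4652 in abemaciclib, a log2 fold change of 4.04 ± 0.34. The lowest treated library was thus far above the highest untreated library in each genotype. The response was 0.83 ± 0.48 larger in the knockout on the log2 scale. Both the DMSO groups and the abemaciclib groups overlapped between genotypes, and the larger knockout estimate goes with a DMSO mean of 268 ± 35.7 against 495 ± 227 in sgControl.

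*FOSB*, a close relative of *FOS* with the same pairing rules, had normalized counts of 65.2 to 125 in sgControl DMSO and 713 to 929 in sgControl abemaciclib, and it rose by a log2 fold change of 3.00 ± 0.20 (DESeq2, adjusted p = 4.64e-52). In the knockout the ranges were 69.3 to 99.2 and 654 to 890.1, a log2 fold change of 3.18 ± 0.21. The genotypes overlapped in both treatments and their responses differed by 0.17 ± 0.28. *FOSB* was the member whose 2 responses lay closest together.

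*JUN*, the zipper partner of *FOS*, started from a higher level per kilobase of exon (894 against 155 normalized counts per kilobase in sgControl DMSO). Its normalized counts were 2685, 3489 and 3546 in sgControl DMSO and 11385.5, 14834 and 15646 in sgControl abemaciclib, a log2 fold change of 2.11 ± 0.13 (DESeq2, adjusted p = 3.38e-61). In the knockout they were 2633, 2588 and 2212 in DMSO and 15040.3, 17823.5 and 17057 in abemaciclib, a log2 fold change of 2.75 ± 0.13. The knockout lay below sgControl in DMSO without overlap and partly overlapped it in abemaciclib, where 2 of the 3 knockout libraries lay above every sgControl library, and its response was 0.64 ± 0.18 larger.

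*JUNB*, which can dampen *JUN* as well as form AP-1, had the highest DMSO level per kilobase of the AP-1 genes and 1 of the smaller responses. It ranged from 3209.6 to 3736 in sgControl DMSO and from 6346 to 9137 in sgControl abemaciclib, and rose by a log2 fold change of 1.21 ± 0.11 (DESeq2, adjusted p = 4.33e-28). In the knockout it ranged from 4197 to 4295 and from 7808 to 8629, a log2 fold change of 0.93 ± 0.11. *JUNB* was the only AP-1 gene of the 4 with a higher DMSO level in the knockout than in sgControl, by 0.31 ± 0.11 on the log2 scale, and the genotypes overlapped in abemaciclib.

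*ATF3*, which represses or activates its targets depending on its partner, moved in opposite directions in the 2 genotypes. Its normalized counts in sgControl were 1159.9, 1341 and 1344 in DMSO and 568, 731 and 755 in abemaciclib, a log2 fold change of −0.90 ± 0.10 (DESeq2, adjusted p = 4.99e-19). In the knockout they were 1511, 1528 and 1478 in DMSO and 2562, 2774 and 2807 in abemaciclib, a log2 fold change of 0.85 ± 0.10. Every treated sgControl library lay below every untreated one, and every treated knockout library above. The gap between the responses was 1.75 ± 0.14, within 1 SE of the 1.69 ± 0.33 of *EGR1*.

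**Figure D2:**
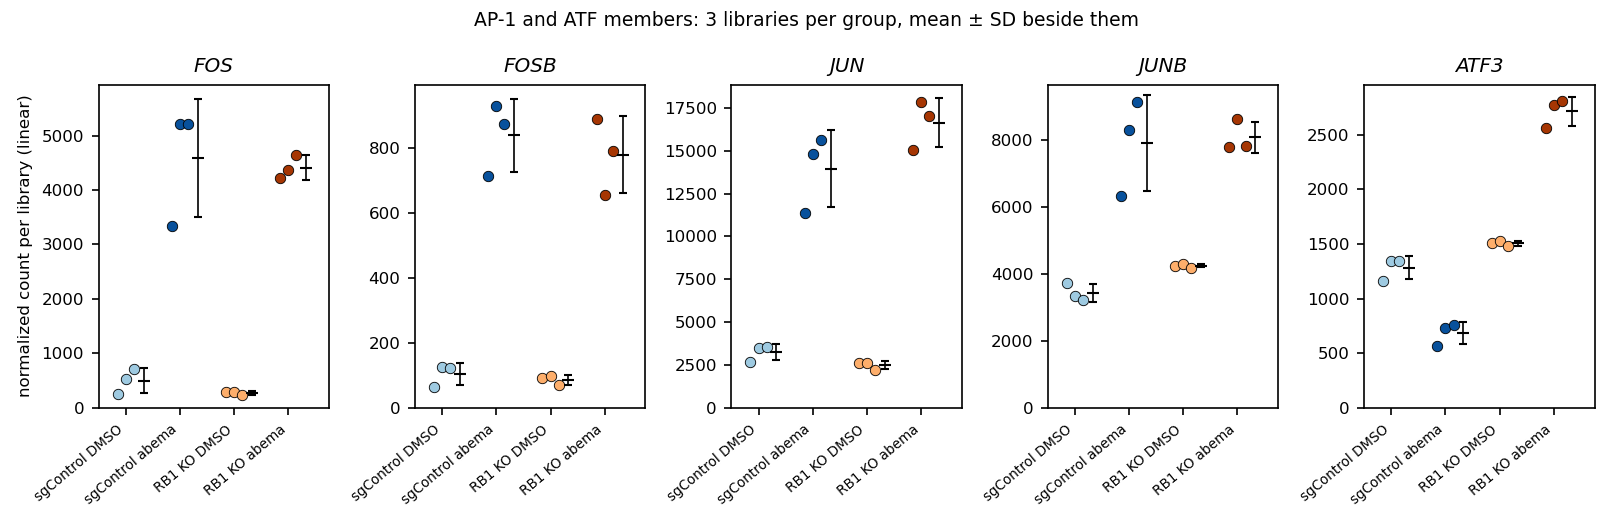
Normalized counts (y axis, linear from 0, a separate scale for each gene) of the 4 AP-1 genes and *ATF3* in the 4 groups (x axis; abema, abemaciclib; *RB1* KO, *RB1* knockout). Each circle is 1 of 3 libraries in the order of replicates, and the bar beside them is the mean ± SD; *ATF3* alone falls from DMSO to abemaciclib in sgControl (mean 1282 to 684) and increases in the knockout (mean 1506 to 2714).

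*EGR1*, a zinc-finger factor induced by growth factors, reached the highest level per kilobase of any member. In sgControl its normalized counts were 1738, 3206 and 3926 in DMSO and 15686.5, 18169.5 and 16076 in abemaciclib, a log2 fold change of 2.49 ± 0.23 (DESeq2, adjusted p = 2.75e-25). In the knockout they were 1608, 1719.9 and 1431 in DMSO and 30406, 27294 and 28452 in abemaciclib, a log2 fold change of 4.18 ± 0.24. The knockout stood below sgControl in DMSO and above it in abemaciclib, without overlap in either treatment. The difference between the responses was 1.69 ± 0.33. In DMSO the separation was narrow, since the highest knockout library (1719.9) was just under the lowest sgControl library (1738), which is the library that stood apart.

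*EGR2*, better known for its part in myelination, had the fewest reads. It held 5 to 15 raw counts in each DMSO library, and its normalized counts were 5.67 to 13.2 in sgControl DMSO and 38.8 to 64.6 in sgControl abemaciclib, a log2 fold change of 2.43 ± 0.38 (DESeq2, adjusted p = 1.06e-09). In the knockout the ranges were 6.83 to 9.09 and 83.2 to 128, a log2 fold change of 3.70 ± 0.43. As with *EGR1*, the treated knockout libraries all lay above the treated sgControl libraries. The SE of the difference between the responses, 1.27 ± 0.58, is the widest of the 10 genes.

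*EGR3* followed neither of them. Its normalized counts in sgControl were 1459, 1786 and 1746 in DMSO and 8279, 8568 and 8615 in abemaciclib, a log2 fold change of 2.35 ± 0.08 (DESeq2, adjusted p = 2.66e-170). In the knockout they were 462, 492 and 409 in DMSO and 1597, 1418 and 1568 in abemaciclib, a log2 fold change of 1.75 ± 0.09. The treated knockout cells therefore only reached the range of untreated sgControl cells. The difference between the responses was −0.60 ± 0.13.

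*IER2*, at 3694 to 4524 in sgControl DMSO and 5036 to 7865 in sgControl abemaciclib, rose by a log2 fold change of 0.67 ± 0.13 (DESeq2, adjusted p = 1.95e-06). In the knockout it ranged from 4079 to 4289.9 in DMSO and from 8106 to 10507 in abemaciclib, a log2 fold change of 1.16 ± 0.13. The genotypes overlapped in DMSO but not in abemaciclib.

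*DUSP1*, the feedback phosphatase, had the largest estimate of the 10 in sgControl, within 1 SE of that of *FOS*. Its normalized counts there were 849.9, 1157 and 1121 in DMSO and 7870.2, 10995 and 11036 in abemaciclib, a log2 fold change of 3.26 ± 0.13 (DESeq2, adjusted p = 2.58e-145). In the knockout they were 817, 793 and 778 in DMSO and 4409.8, 4673 and 4591 in abemaciclib, a log2 fold change of 2.52 ± 0.13. Knockout libraries lay below sgControl libraries in both treatments without overlap. The knockout response minus the sgControl response was −0.74 ± 0.18 on the log2 scale, of opposite sign to that of *JUN* and of *EGR1*.

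**Figure D3:**
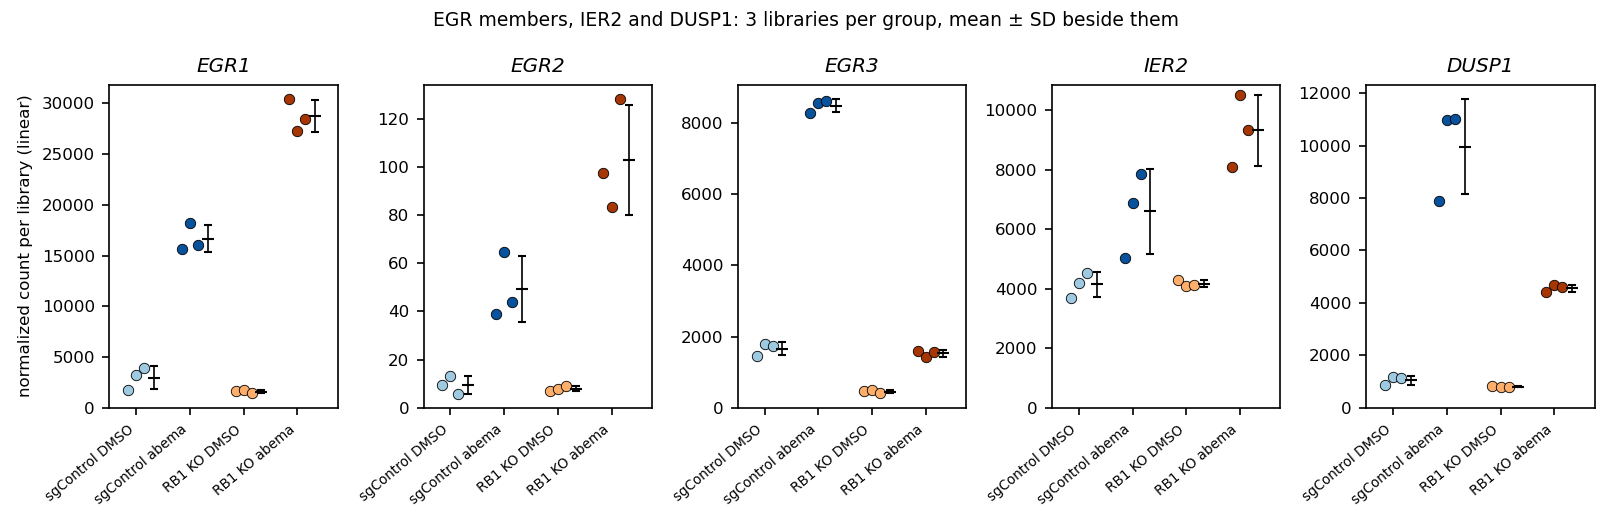
Normalized counts (y axis, linear from 0, a separate scale for each gene) of the 3 EGR genes, *IER2* and *DUSP1* in the 4 groups (x axis; abema, abemaciclib; *RB1* KO, *RB1* knockout), with 1 circle for each of 3 libraries and the mean ± SD beside them. *EGR1* and *EGR2* are highest in treated knockout cells, whereas *EGR3* and *DUSP1* are highest in treated sgControl cells.

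The 10 genes thus differed in how far the knockout response departed from the sgControl response. The estimate was larger in the knockout for *FOS*, *FOSB*, *JUN*, *EGR1*, *EGR2*, *ATF3* and *IER2* and smaller for *JUNB*, *EGR3* and *DUSP1*. Called at an adjusted p under 0.05, 4 were higher (*JUN*, *EGR1*, *ATF3* and *IER2*) and 2 lower (*EGR3* and *DUSP1*), where 21.1% of all genes were called higher and 20.3% lower. This contrast includes the libraries on which the genes were chosen, so the count is a description. Scaling by total counts instead of size factors shifted the median gene of this difference by 0.14 on the log2 scale and moved the share of higher calls among all calls from 51.0% to 63.8%, and the difference for *EGR3* became −0.46 and that for *ATF3* 1.89.

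Without drug, the genotypes were set apart most by *EGR3*. Its log2 fold change was −1.87 ± 0.09 in the knockout against sgControl, or 0.273 times the sgControl level. *EGR1* (−0.90 ± 0.24), *DUSP1* (−0.39 ± 0.13) and *JUN* (−0.39 ± 0.13) were also lower without overlap, and *JUNB* and *ATF3* (0.23 ± 0.10) were higher without overlap. *FOS* at −0.89 ± 0.34, *FOSB*, *EGR2* and *IER2* overlapped. In all, 2 members were called higher and 5 lower, beside 19.2% and 18.2% of all genes, and *FOS* was among the 5 although its replicates overlapped. The count of 7 dropped to 2 without sgControl DMSO replicate 2 and to 4 without sgControl DMSO replicate 3, *RB1*-knockout DMSO replicate 2 or *RB1*-knockout DMSO replicate 3. Without both sgControl replicates numbered 1 it was 7.

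In abemaciclib, the members separated in both directions. *ATF3* was 3.96-fold higher in the knockout (1.98 ± 0.10), *EGR2* 2.09-fold (1.06 ± 0.31), *EGR1* 1.73-fold (0.79 ± 0.23) and *IER2* 1.41-fold (0.50 ± 0.13), and none of them overlapped. *EGR3* was at 0.180 times (−2.47 ± 0.08) and *DUSP1* at 0.457 times (−1.13 ± 0.12) the sgControl level, also without overlap. The 4 AP-1 genes overlapped between genotypes in their ranges, although *JUN* was higher in the knockout in each of the 3 pairs of same-numbered libraries, with log2 differences of −0.06 ± 0.34 for *FOS*, −0.11 ± 0.18 for *FOSB*, 0.25 ± 0.13 for *JUN* and 0.03 ± 0.11 for *JUNB*. These 4 called higher and 2 called lower stand beside 28.5% and 27.4% of all genes. With the replicate block, 7 members rather than 6 were called in this comparison, *JUN* being the seventh. Total-count scaling moved the share of higher calls among all genes here from 50.9% to 59.2% and the estimates of *EGR1* and *EGR3* to 0.90 and −2.36.

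**Figure D4:**
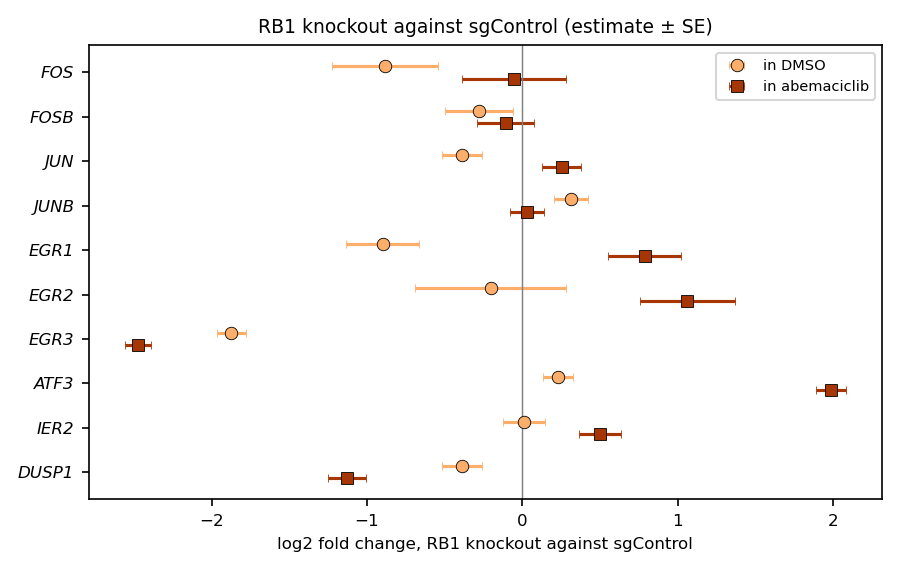
Log2 fold change of *RB1* knockout against sgControl (x axis) for each of the 10 genes (y axis), as DESeq2 estimates with bars of 1 SE, in DMSO (light circles) and in abemaciclib (dark squares). *EGR1* crosses from −0.90 to 0.79, while *EGR3* stays below −1.8 in both treatments.

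Summed over the 10 genes, the CPM (counts scaled by the total of the library) were 271, 353 and 394 in sgControl DMSO and 958, 1279 and 1281 in sgControl abemaciclib. In the knockout the sums were 293, 281 and 273 CPM in DMSO and 1335, 1436 and 1416 in abemaciclib. The treated knockout libraries all exceeded the treated sgControl libraries in this sum, to which *EGR1* contributed most. *EGR1* alone was at 254, 311 and 274 CPM in sgControl abemaciclib and 540, 501 and 521 in knockout abemaciclib. Because *EGR1* was among the genes that led to the choice, nothing is read from this excess. Per kilobase of exon, *JUNB* had the highest mean level of the 10 in both DMSO groups, at 1873 normalized counts per kilobase in sgControl and 2322 in the knockout. *EGR1* was the highest in both abemaciclib groups, at 5306 and 9154. *EGR2* was lowest in every group, at 2.13 to 27.8, and *FOSB* was next to it, at 15.5 to 151. A 3′ library kit, which the general methods of the study describe in place of the whole-transcript kit named in the labels, would make such division by length inapplicable.

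Replicates differed together across the 10 genes. In sgControl abemaciclib, replicate 1 was the lowest of the 3 for all 10 genes, and in sgControl DMSO replicate 1 was lowest for 8. In the knockout DMSO group, replicate 3 was lowest for 8. Spread was widest for *FOS*, *EGR2* and *EGR1* in sgControl DMSO, with coefficients of variation of 46.0%, 40.2% and 37.7%, and narrowest for *JUNB* in knockout DMSO at 1.15%. With both sgControl replicates numbered 1 left out, a choice made after these values were seen, all 10 members were still called in sgControl.

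Across the 12 libraries, the genes whose log2 values most resembled those of *EGR1* among the 11874 with a mean of at least 100 were *UNC5A* (r = 0.990), *JUN* (0.988), *FOS* (0.983), *TMEM131L* (0.980) and *CLK4* (0.979). Those most like *FOS* were *GJA1* (0.992), *JUN* (0.991), *FOSB* (0.991), *CLK1* (0.988) and *ZFP36* (0.986). *GJA1* encodes the gap junction protein connexin 43, *ZFP36* an mRNA-destabilizing protein, and *CLK1* and *CLK4* kinases of splicing factors. *ATF3* stood at r = 0.13 with *EGR1* and −0.02 with *FOS*. The points share 4 groups and the same size factors, so these are descriptions of the group pattern.

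Genes of the same pathway were then counted from 4 lists, in each of which the response in sgControl, the response in the knockout and the difference between them were tested. Their counts stand beside the all-gene shares given above: 25% higher and 24.8% lower in sgControl, 14.9% and 15.1% in the knockout, and 21.1% and 20.3% for the difference. These shares were larger with a minimum of 10 counts in 3 samples, which left 17060 genes. Of these, 5659 were called higher and 5678 lower in sgControl, 2912 and 2863 in the knockout, and 4545 and 4367 for the difference. Among 12 other AP-1 and ATF zipper factors, 4 rose and 5 fell in sgControl (median log2 fold change −0.11), against 3 and 2 in the knockout (0.12), and the responses differed for 7, with 6 more positive in the knockout. The knockout count of 5 was 3 without *RB1*-knockout replicate 1 or 3 of either treatment. *FOSL1*, the *FOS* relative often raised by sustained ERK signalling, fell from 533 ± 42.5 to 25.9 ± 11.0 in sgControl (−4.33 ± 0.19, adjusted p = 4.39e-113) and from 1060 ± 66.4 to 649 ± 67.0 in the knockout (−0.71 ± 0.11, adjusted p = 3.68e-09). *JUND*, the *JUN* gene that is usually expressed without a stimulus, rose from 12730.7 ± 1955 to 26719 ± 353 in sgControl (1.07 ± 0.09) and by 0.36 ± 0.09 in the knockout. *BATF* rose in both, by 0.57 ± 0.16 and 0.91 ± 0.19. The small MAF genes *MAFF* (−1.08 ± 0.08) and *MAFG* (−0.96 ± 0.06) fell in sgControl, whereas their estimates in the knockout were −0.17 ± 0.08 and 0.12 ± 0.06 and did not pass the test. *MAFK* at −0.15 ± 0.06 in the knockout had an adjusted p of 0.0495, which ran from 0.00316 to 0.215 over the alternatives and was lost in 7 of the fits without 1 library. In sgControl *MAFK* was close to this, at −0.13 ± 0.06 (DESeq2, adjusted p = 0.0536, from 0.00410 to 0.275 over the alternatives). Its responses differed by −0.01 ± 0.09. Part of the AP-1 family therefore fell in sgControl while *FOS*, *FOSB*, *JUN* and *JUNB* rose.

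Other immediate early genes moved in both directions. Of 24, 11 rose and 8 fell in sgControl (median 0.17) and 16 rose and 3 fell in the knockout (0.49), and the responses differed for 18, with 12 more positive and 6 more negative in the knockout. *CCN1*, which encodes a secreted matrix protein, rose from 701 ± 29.7 to 3877 ± 654 in sgControl (2.47 ± 0.11) and by 1.18 ± 0.11 in the knockout. *CCN2*, of the same family, fell from 81.5 ± 5.74 to 12.7 ± 8.39 in sgControl (−2.67 ± 0.29) and rose from 137 ± 16.1 to 392 ± 48.7 in the knockout (1.52 ± 0.18). The orphan nuclear receptor *NR4A2* rose by 1.78 ± 0.16 in sgControl, with an estimate of −0.24 ± 0.21 in the knockout that did not pass the test. *IER5* fell by 1.21 ± 0.08 in sgControl and rose by 0.30 ± 0.08 in the knockout. *ARC*, a synaptic immediate early gene, fell in both (−1.92 ± 0.11 and −0.54 ± 0.11), as did *IER3* (−0.28 ± 0.09 and −0.60 ± 0.09), although the call for *IER3* in sgControl was lost without both replicates numbered 1 (adjusted p = 0.0687, the highest of its alternatives, which began at 0.000152). *PPP1R15A*, which restores translation after stress, rose in both (1.04 ± 0.15 and 1.55 ± 0.15).

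ERK output and feedback genes were likewise mixed. Of 17 genes, 7 rose and 7 fell in sgControl (median −0.20), and of the 16 tested in the knockout 7 rose and 2 fell (0.11). The responses differed for 13, with 8 more positive and 5 more negative in the knockout. The MAP kinase phosphatase gene *DUSP4*, a relative of *DUSP1*, was at 14135 ± 333 and 16076 ± 955 in sgControl DMSO and abemaciclib, but fell from 15467 ± 315 to 4337 ± 127 in the knockout (−1.83 ± 0.05, adjusted p = 7.86e-254). Its sgControl estimate of 0.19 ± 0.05 passed the test, and did not with total-count scaling (adjusted p = 0.523) or with only the groups compared (adjusted p = 0.0637), in a range over all alternatives from 0.000694 to 0.523. *DUSP2* rose in sgControl (1.13 ± 0.10) and stood at 0.01 ± 0.11 in the knockout, and *DUSP5* rose by 0.29 ± 0.06 in sgControl (adjusted p = 0.0625 with total-count scaling, 1.06e-07 at the lowest alternative) and fell by 0.20 ± 0.07 in the knockout, a call lost without *RB1*-knockout DMSO replicate 2 or abemaciclib replicate 1. *PHLDA1* rose in both (1.07 ± 0.13 and 1.38 ± 0.13). The ephrin receptor gene *EPHA4* fell in sgControl (−2.30 ± 0.24) and rose in the knockout (1.03 ± 0.15), and *EPHA2* fell in sgControl (−1.18 ± 0.11) with an estimate of −0.02 ± 0.10 in the knockout. *SPRY2*, an inhibitor of receptor signalling on chromosome 13 as *RB1* is, rose in the knockout (1.27 ± 0.20), and its fall in sgControl (−0.56 ± 0.20, adjusted p = 0.0100) was lost without sgControl DMSO replicate 3 or sgControl abemaciclib replicate 1.

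The kinases and factors upstream of these genes were counted in the same way. Of 24 genes of the ERK cascade, *SRF* and CREB, 5 rose and 10 fell in sgControl (median −0.13) and none rose and 6 fell in the knockout (−0.02), with 9 responses more positive and 6 more negative in the knockout. *ELK1*, the ETS partner of *SRF*, rose by 0.44 ± 0.06 in sgControl and stood at 0.00 ± 0.06 in the knockout. *MRTFA*, the actin-sensing partner of *SRF*, rose by 0.33 ± 0.07 in sgControl, with −0.04 ± 0.07 in the knockout. *RPS6KA3*, which encodes the ERK-activated kinase RSK2, fell in sgControl from 1303 ± 119 to 441 ± 24.6 (−1.56 ± 0.08) and had an estimate of 0.07 ± 0.08 in the knockout. *HRAS* fell by 1.16 ± 0.10 in sgControl, and its knockout estimate of −0.20 ± 0.10 did not pass the test (adjusted p from 0.000689 to 0.242 over the alternatives, of which 5 passed). *CREM*, a CREB relative, fell in both (−0.74 ± 0.08 and −0.33 ± 0.08), and *ARAF* fell in the knockout (−0.41 ± 0.05) with −0.08 ± 0.05 in sgControl, which became −0.21 with total-count scaling (adjusted p = 2.22e-05, against up to 0.522 over the alternatives). *RPS6KA5*, which encodes the histone kinase MSK1, rose by 0.39 ± 0.10 in sgControl, a call lost with total-count scaling (adjusted p = 0.0567, 0.000167 at the lowest alternative). Between the genotypes, the AP-1 relatives, other immediate early genes, ERK output genes and upstream genes called were 4 of 11, 10 of 24, 9 of 16 and 7 of 24 in DMSO and 11 of 12, 21 of 24, 16 of 17 and 17 of 24 in abemaciclib. Over all genes, 19.2% were called higher and 18.2% lower in DMSO, and 28.5% and 27.4% in abemaciclib. With a minimum of 10 counts in 3 samples, 3310 and 3121 of 17060 genes were called in DMSO and 5909 and 5843 in abemaciclib. Among the related genes named, *MAFG* overlaps SIRT7 on its own strand, *MRTFA* overlaps RPL4P6 there, and *CREM* overlaps ATP6V1G1P4 and others there. These genes and *MAFF*, *CCN2*, *IER3*, *PHLDA1*, *EPHA2*, *EPHA4*, *HRAS*, *ARAF*, *MAFK* and *RPS6KA5* overlap a gene on the opposite strand. RNA levels of kinases do not measure their activity.

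**Figure D5:**
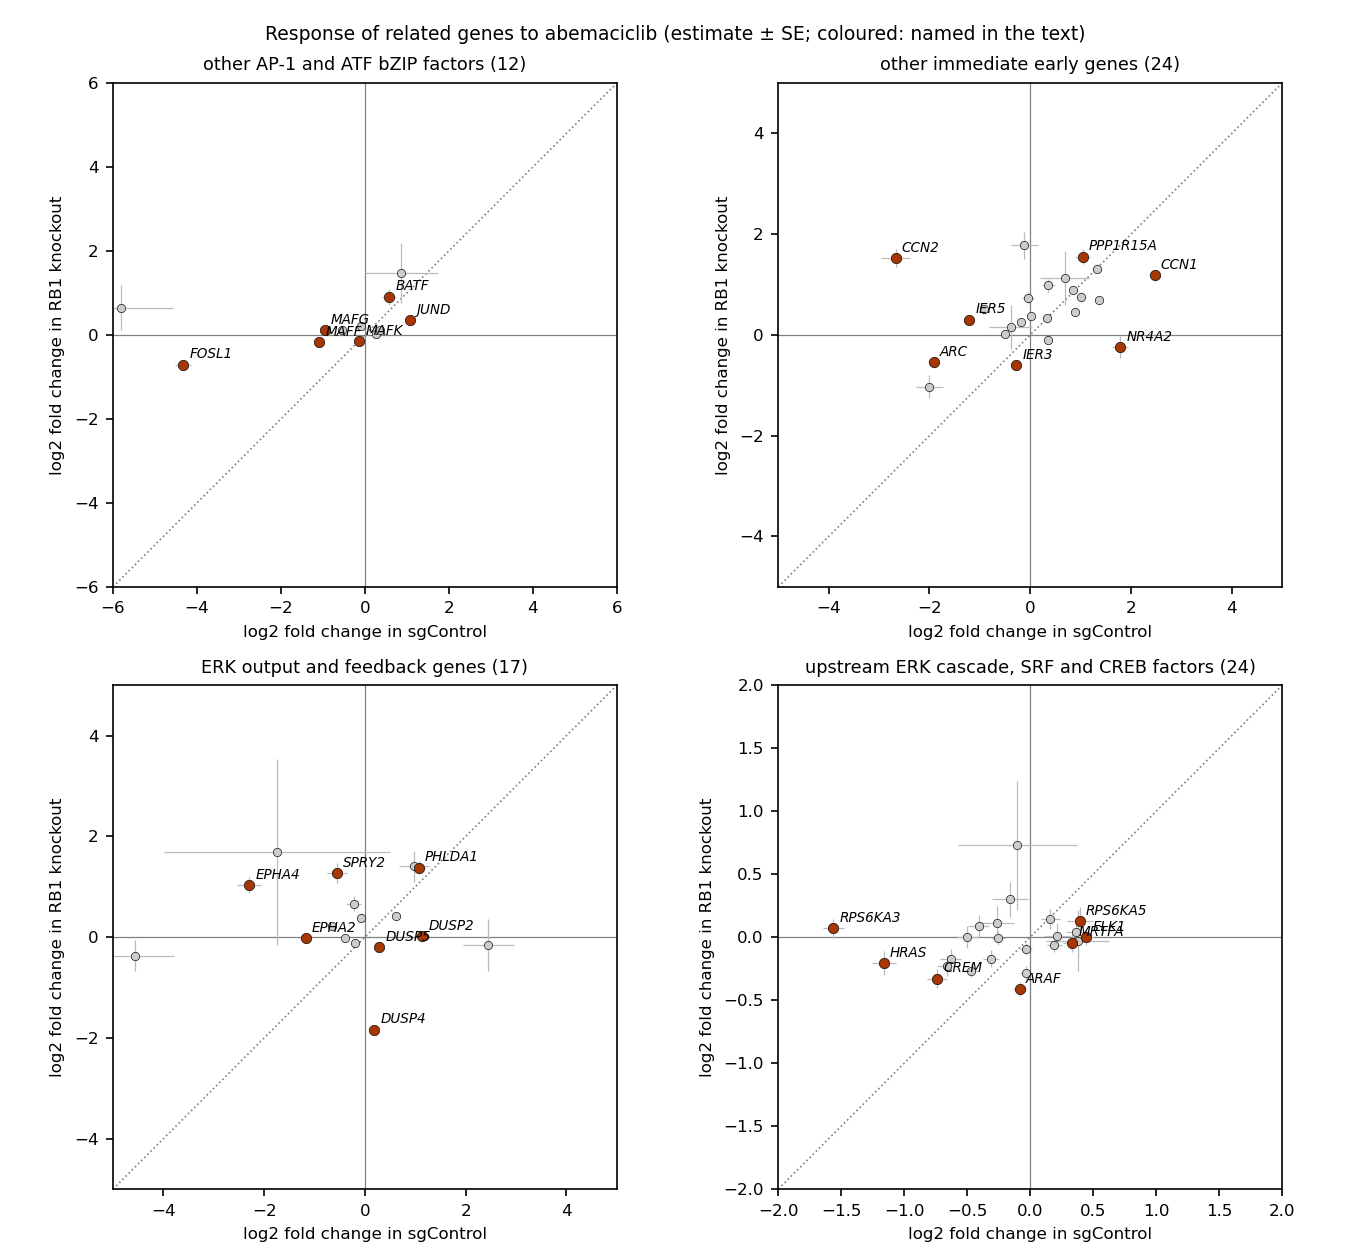
Log2 fold change of abemaciclib against DMSO in sgControl (x axis) and in *RB1* knockout (y axis) for the 4 lists of related genes, as DESeq2 estimates with bars of 1 SE; named genes are coloured, the dotted line marks equal responses and each panel has its own scale. *CCN2* and *EPHA4* lie in the quadrant of a fall in sgControl and a rise in the knockout, *DUSP4* in the opposite one, and *FOSL1* at −4.33 in sgControl and −0.71 in the knockout.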

How the data were processed

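RNA of 12 samples (4 groups of 3) was sequenced, and the authors deposited raw counts per gene made with STAR 2.7.5b and featureCounts 2.0.1 on hg38, named by symbol. The labels name a directional whole-transcript kit and the general methods a 3′ kit; strand and multi-mapping settings are not stated. The 44 rows without a symbol held 0% of counts and were left out, leaving 60612 of 60656 rows. One DESeq2 1.42.0 model (R 4.3.3) with a term for group and no replicate block was fitted to all 12 samples; two-sided Wald tests were adjusted over all genes left by independent filtering and called at an adjusted p under 0.05. Depth of 39907318 to 81636393 counts limits only rare transcripts such as *EGR2*. Each adjusted p in the text is from this model unless another setting is named. The script was tested on simulated data.

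The members and the 4 lists were chosen with earlier results of these data known. From each list, up to 2 genes per direction were named in the 2 responses and their difference by the largest log2 fold change among calls with a mean of at least 100 and no overlap of replicates. For *EGR1* and *FOS*, the 5 genes with the highest Pearson correlation of log2(normalized count + 1) were named. Positions are from GENCODE 44 and promoters from RefSeq. Alternatives were edgeR 4.0.16 with TMM, total-count scaling, a minimum of 10 counts in 3 samples, no independent filtering, a replicate block, only the groups compared, and leaving out each library.

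Replicate numbers come from the sample titles. Deviations of same-numbered samples from their group means correlated at 0.15, 0.26 and 0.11 between the genotypes in abemaciclib. Such low values do not settle whether the numbers pair the samples there. The main estimates for that comparison carry no replicate block, which was run as an alternative. In the sgControl response the correlations were 0.25, 0.22 and −0.08, and elsewhere too at least 1 pair fell under 0.1. Whether replicates were separate clones is not stated, so p-values measure the spread between these cultures.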

Additional observations from a re-analysis of the deposited data

Results flagged for a closer look

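Groups of 3 libraries are too small for a test of outlying samples. *ATF3* is listed because every treated library lay below every untreated one in sgControl and above in *RB1* knockout, a difference of 1.75 on the log2 scale given without a test, since the gene was chosen on these libraries.

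Among the related genes named by the rule, 23 are listed for which the responses to abemaciclib differed between the genotypes by the interaction term of DESeq2 (adjusted p under 0.05), given here as the log2 response in the knockout minus that in sgControl. Over all genes, 21.1% were called higher and 20.3% lower for this difference. Some genes were named for passing this same test, so nothing is read from the number listed. *BATF*, *MAFK*, *PHLDA1* and *RPS6KA5* were named and did not pass it. Among the AP-1 relatives the differences were 3.62 for *FOSL1*, 1.08 for *MAFG*, 0.91 for *MAFF* and −0.71 for *JUND*. Among other immediate early genes they were 4.19 for *CCN2*, 1.51 for *IER5*, 1.37 for *ARC*, 0.51 for *PPP1R15A*, −0.31 for *IER3*, −1.29 for *CCN1* and −2.03 for *NR4A2*. Among ERK output genes they were 3.33 for *EPHA4*, 1.83 for *SPRY2*, 1.16 for *EPHA2*, −0.48 for *DUSP5*, −1.12 for *DUSP2* and −2.02 for *DUSP4*. Among the upstream genes they were 1.63 for *RPS6KA3*, 0.96 for *HRAS*, 0.41 for *CREM*, −0.33 for *ARAF*, −0.37 for *MRTFA* and −0.44 for *ELK1*. The calls for *IER3* (adjusted p = 0.0364) and *PPP1R15A* (adjusted p = 0.0382) were lost in 9 and 7 of the fits without 1 library, with adjusted p up to 0.322 and 0.113 over all alternatives.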

How the results depend on the processing

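No called value reversed. All 10 members were called in the sgControl response under every alternative run; their calls in the knockout were fixed by how they were chosen. Beyond the replicate spread moved 4 member values under total-count scaling (given above) and the *JUNB* difference between the responses, from −0.28 to −0.49 without both sgControl replicates numbered 1. With the replicate block the members called were 10 in sgControl, 10 in the knockout, 6 for the difference, 7 in DMSO and 7 (6 without the block) in abemaciclib. Under the block no member count moved by over 1.5 times, whereas the DMSO count did in some fits without 1 library. Of the AP-1 relatives called in the knockout response (5), the count was 3 with total-count scaling and with no independent filtering, and 3 to 5 without 1 library. For *RB1* knockout against sgControl in DMSO, leaving out 1 library gave 2 to 7 members (7 with all), 6 to 14 other immediate early genes (10 with all; 6 without *RB1*-knockout replicate 3), 5 to 8 ERK output genes (9 with all; 5 without sgControl or *RB1*-knockout replicate 3) and 4 to 10 upstream genes (7 with all; 4 without *RB1*-knockout replicate 2). The causes were not tested. Depth limits *EGR2* most, at 5 to 15 counts in DMSO.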

Other observations

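*LYZ*, a lysozyme gene listed here as a leukocyte marker, was chosen after its values were seen. Its normalized counts were 16.7 to 33.5 in sgControl DMSO, 438 to 544 in sgControl abemaciclib, 16.4 to 39.7 in *RB1*-knockout DMSO and 6.79 to 22.1 in *RB1*-knockout abemaciclib. The pan-leukocyte gene *PTPRC* was at most 3.40 in the same libraries and *CD3E* and *TYROBP* were at 0. *LUM*, which encodes a collagen-binding proteoglycan, was at 2.52 to 3.72, 35.6 to 66.1, 8.81 to 12.3 and 21.5 to 29.5 in the same order of groups, while of the same list *COL3A1* did not exceed 0.630 and *COL1A1* was at 2097 to 2392, 2787 to 3031, 1879 to 2055 and 2556 to 2667. *DCN*, also of that list, was at 0.881 to 5.04, 18.3 to 23.8, 0 to 3.31 and 0 to 4.03.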
